A study of Mus musculus with 16 samples.

Results

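DNA methylation was described here across 10 genes that mark the mesenchymal fibroblast: Prrx1, Twist2, Snai2, Pdgfra, Thy1, Vim, S100a4, Acta2, Fn1 and Postn. A CpG belonged to a gene if it lay between 2 kb upstream of the gene's start and the gene's end in GENCODE M21 on mm10, and its level was the percentage of reads called methylated. The deposited series table held 537 such CpGs out of 1203687, in 9 of the 10 genes. Acta2, on chromosome 19, is outside that table and was taken from the library tables. Target capture bisulfite sequencing (tcBS-seq) had been run on 16 libraries of immortalised embryonic fibroblasts from 2 sibling E13.5 C57BL/6J mouse embryos, the male MEF-1 and the female MEF-2. Each family consisted of 1 parental line and 7 clonal lines, each clonal line grown from a single cell sorted out of the parental culture, so that the study could ask how faithfully methylation passes through clonal expansion. The cells had been immortalised by serial passage through crisis, and neither an engineered allele nor a treatment is given for any line. Each clonal line is 1 library and the parental lines are 1 library each. All clones of a family descend from 1 embryo, so embryo, sex and culture cannot be told apart in any difference between the families, and p-values over lines measure the spread between clones.

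Prrx1 and Twist2 are transcription factors of the embryonic mesenchyme, and Snai2 (Slug) represses epithelial genes during the transition to mesenchyme. Pdgfra encodes a receptor tyrosine kinase for platelet-derived growth factor and Thy1 (CD90) a surface glycoprotein anchored in the membrane by a lipid, both used to sort fibroblasts. Vim encodes the intermediate filament vimentin, Acta2 smooth muscle actin, S100a4 a calcium-binding protein, Fn1 fibronectin and Postn the matrix protein periostin. In mammalian cells, CpG-dense promoters of active genes are as a rule free of methylation while transcribed gene bodies carry it. Expression was not analysed here.

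The capture gave 59243669 to 90633091 methylation calls per library and a median of 26 to 39 reads per CpG of the series table, and the median over the member CpGs was 31 reads. It reached 537 of the 4126 reference CpGs in the 9 genes and 149 of 456 in their promoters, from 9 each in Thy1 and Postn to 141 in Pdgfra. A promoter was taken as 1000 bp before to 500 bp after the start of the principal transcript, and the gene body as the rest of the gene. Values of a family are the mean ± SD over its 7 clonal lines, and ranges give the lowest, median and highest line. With at least 3 CpGs required, 6 member promoters and 9 member gene bodies could be tested. The member promoters were set beside promoters of other lineages: 4 of the 6 member promoters and 11 of 17 promoters of other mesenchymal genes had a mean level under 10% over the 14 clonal lines. The same held for 2 of 19 epithelial, 2 of 7 endothelial and 1 of 8 leukocyte promoters, and for 7006 of all 11910 protein-coding promoters (58.8%). With 6 promoters, the member share (66.7%) was near that of all promoters, so these levels do not check the label of the set. The exceptions among the members were Pdgfra, which was low in the MEF-2 lines only, and S100a4. The only measured CpG before the Thy1 start was also methylated.

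**Figure D1:**
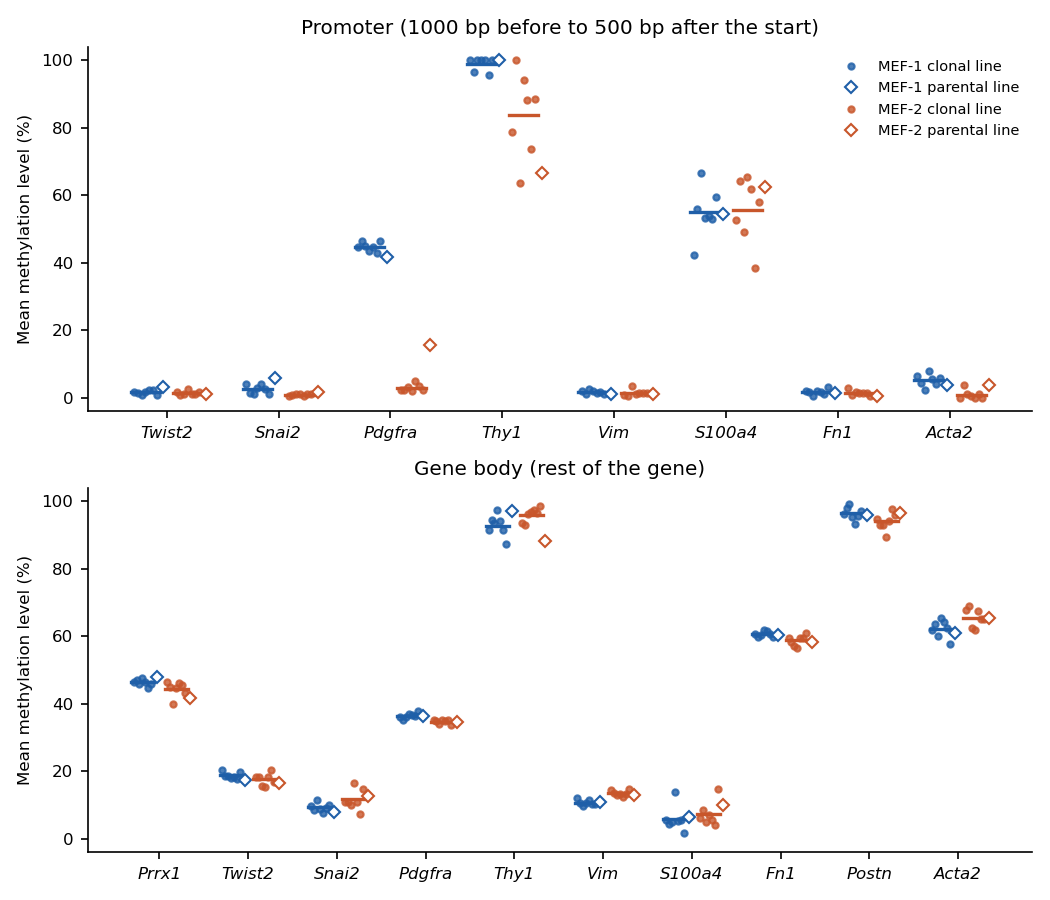
Mean methylation level (%, unweighted mean over CpGs) of the promoter (top) and the gene body (bottom) of each gene; filled points are the 7 clonal lines of a family, horizontal lines their means and open diamonds the parental lines, and the Thy1 promoter rests on 1 CpG. The Pdgfra promoter separates the families, with MEF-1 lines between 42.9 and 46.5% and MEF-2 lines between 2.00 and 5.08%, whereas Twist2, Vim and Fn1 promoters lie near 0 in all 16 libraries.

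Between the clonal families, 73 of the 537 member CpGs differed (quasi-binomial F-test, Benjamini-Hochberg adjusted p under 0.05 over all CpGs of the table), 59 of them higher in MEF-1 and 14 higher in MEF-2. That is 13.6% of the member CpGs, where 20.2% of the whole table was called (11.6% higher in MEF-1 and 8.53% higher in MEF-2). The member CpGs were more often low, with 333 of 537 (62.0%) under a mean of 10% against 38.7% of the table. Among CpGs with a mean between 10 and 90%, 62 of 96 members were called (64.6%), against 49.1% in the table, and 26 of 52 when Pdgfra was left out. The levels of the 7 MEF-1 and 7 MEF-2 lines did not overlap at 41 of the called member CpGs, 31 of which belonged to Pdgfra (7.64% of member CpGs, 9.37% of the table). Of the regions, 2 of 6 promoters (Pdgfra and Snai2, both higher in MEF-1) and 2 of 9 gene bodies (Pdgfra higher in MEF-1 and Vim higher in MEF-2) were called. The background shares were 41.6% of promoters (25.9% higher in MEF-1 and 15.7% higher in MEF-2) and 48.3% of gene bodies, so neither count stood above the table. No member body differed by 20 points, as 4.13% of bodies did. Below, the called CpG with the largest difference is given for each gene that had one. The other single CpGs named were picked after their values were seen.

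**Figure D2:**
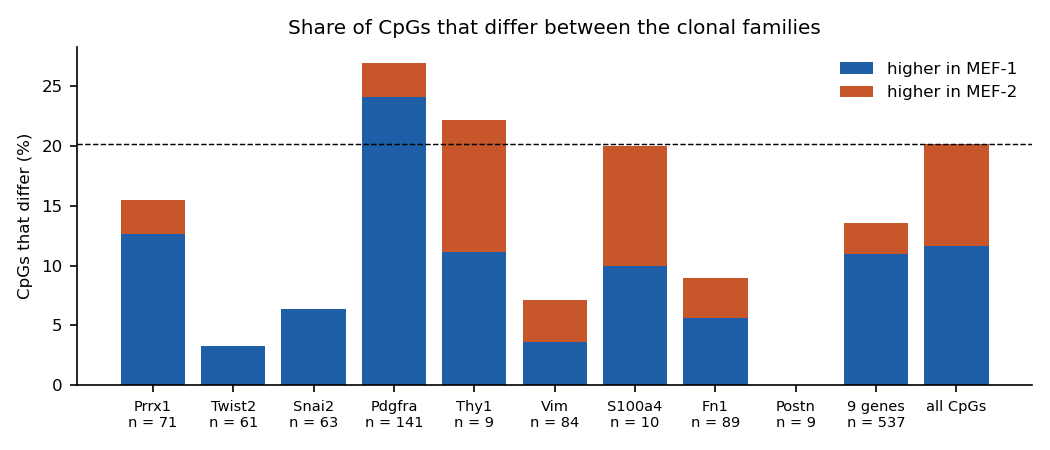
Percentage of each gene's measured CpGs that differ between the 7 MEF-1 and 7 MEF-2 clonal lines (adjusted p under 0.05), split by the family with the higher level; n is the number of CpGs and the dashed line the share of all CpGs. Pdgfra has 38 called CpGs of 141 and Postn has 0 of 9.

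In Prrx1 (chr1:163245119-163313710, minus strand), no CpG within 1000 bp upstream of the start was in the table, but 3 CpGs just beyond that window were all called and all higher in MEF-1. Positions are given in bp from the start of the principal transcript, negative upstream. They lie in this stretch of the minus strand, chr1:163314716-163314868 of GRCm38, printed 5′ to 3′ with the called CpGs in capitals because they are the only measured CpGs upstream of this gene:
Prrx1 upstream: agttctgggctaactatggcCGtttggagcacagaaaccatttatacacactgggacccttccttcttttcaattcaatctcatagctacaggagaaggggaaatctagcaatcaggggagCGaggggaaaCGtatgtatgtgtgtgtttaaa

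From left to right the CpGs sit at -1137, -1036 and -1026. Over the 3 CpGs the MEF-1 lines averaged 85.9% ± 5.88 and the MEF-2 lines 16.6% ± 14.3 (SD, n = 7 each), with lowest, median and highest lines at 77.8, 83.9 and 94.2% in MEF-1 and 0.877, 13.4 and 44.4% in MEF-2. At -1026 the levels were 93.3, 100 and 100% in MEF-1 and 2.63, 14.3 and 64% in MEF-2 (difference 78.2 points, quasi-binomial F-test adjusted p = 0.000263) at 13 to 41 reads per library. The MEF-1 lines were nearly uniform there, while MEF-2 lines spread widely, with line 5 at 64%, line 1 at 36% and lines 2, 3 and 7 at 3.12, 2.63 and 4%. The parental libraries, which the test did not use, lay on the same sides at 100% and 21.6%.

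Inside Prrx1, 68 CpGs were measured, all between +1210 and +5800. Of these, 33 between +1210 and +1910 had a mean under 10% over all clonal lines, and 23 between +3312 and +5800 one of 90% or more. The intronic CpG at +3451 averaged 98.1% ± 1.83 in MEF-1 and 30.4% ± 21.6 in MEF-2, adjusted p = 8.28e-05 by the quasi-binomial F-test, and the MEF-2 lines ranged from 3.03% in line 3 to 65.5% in line 1. The opposite order was seen 238 bp closer to the start, at +3213, with 48.7% ± 32.2 in MEF-1 and 94.1% ± 10.2 in MEF-2 (adjusted p = 0.0185, quasi-binomial F-test), where the wide spread was in MEF-1 instead, with line 6 lowest and line 3 highest at 100%. The gene body as a whole averaged 46.4% ± 0.958 in MEF-1 and 44.5% ± 2.30 in MEF-2 lines and was not called (adjusted p = 0.805). Coverage of the 5 Mb on each side of Prrx1, relative to the MEF-2 median, was 0.829 in MEF-1 line 5 and 0.860 in line 7, and the difference at -1026 was 77.9 points without line 5 and 77.9 points without line 7.

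Twist2 (chr1:91801461-91848028, plus strand) had a low promoter in every line. All 30 promoter CpGs and 25 of 31 body CpGs, out to +898, had a mean under 10%, and the promoter averaged 1.65% ± 0.640 in MEF-1 and 1.47% ± 0.575 in MEF-2 lines (adjusted p = 0.511, quasi-binomial F-test). The other body CpGs lay in an intron between +17820 and +18033 and were methylated to varying degrees. Of these, +17961 (chr1:91819422) was called, with 82.8% ± 15.1 in MEF-1 and 30.4% ± 21.0 in MEF-2 (adjusted p = 0.00896, quasi-binomial F-test) at 16 to 52 reads per library. MEF-1 line 6 was the lowest of its family at 50%. MEF-2 line 6, a clone of the other embryo, was the highest of its own at 60.9%, so the families overlapped at this CpG.

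In Snai2 (chr16:14705852-14709385, plus strand), 44 of 46 promoter CpGs had a mean under 10%. The promoter was called (2.52% ± 1.25 in MEF-1 and 1.00% ± 0.289 in MEF-2 lines, adjusted p = 0.0161, quasi-binomial F-test), and its only CpGs with a mean of 10% or more were those at -671 and -596. Another called promoter CpG, at -453, averaged 5.04% in MEF-1 and was at 0% in each MEF-2 line. Capitals mark the first 2 of them in this stretch of the plus strand, chr16:14705161-14705277, shown because MEF-1 lines split at both:
Snai2 upstream: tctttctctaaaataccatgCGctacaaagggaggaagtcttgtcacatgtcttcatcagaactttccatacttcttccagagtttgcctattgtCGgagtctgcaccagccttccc

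At -596 (21 to 57 reads per library), MEF-1 lines 1 to 7 had levels of 57.1, 2.78, 3.70, 30.6, 51.1, 28.6 and 0%, and at -671 of 46.7, 0, 0, 30, 57.6, 25 and 0%. Lines 1, 4, 5 and 6 were partly methylated at both CpGs and lines 2, 3 and 7 were at or near 0, as were all MEF-2 lines, the highest of which was at 8.89%. The MEF-1 parental promoter level of 5.95% was above all 7 clones, as it was in Twist2 (3.35%) and in 9.17% of promoters. By pooled reads neither was above all clones, with parental levels of 5.42% in Snai2 and 2.53% in Twist2 and highest clones at 5.62% and 2.54%. At the 2 CpGs the parental library stood at 37.0% and 41.7%. Both CpGs were called between the families (adjusted p = 0.0256 at -596 and 0.0265 at -671, quasi-binomial F-test). Without MEF-1 lines 1, 4 and 5, the MEF-1 lines with the fewest differences from the parental library over the table, the difference at -596 was 6.94 points (adjusted p = 0.362) and that of the promoter 0.651 points (adjusted p = 0.0520). Leaving out line 4 or line 5 alone also ended the call at -596 (adjusted p = 0.0524 and 0.0764), as did thinning to 10 reads (adjusted p = 0.0883). The difference was then 22.1, 18.6 and 27.1 points, against 23.0 with all lines and reads. limma on the levels called 0 of the 63 Snai2 CpGs (adjusted p = 0.0860 at -596). Relative coverage around Snai2 was 0.768 in line 6 and 0.917 in line 4, and its part in these levels was not tested. The size of the promoter difference depended on the window, and was wider over the 1000 bp before the start alone.

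**Figure D3:**
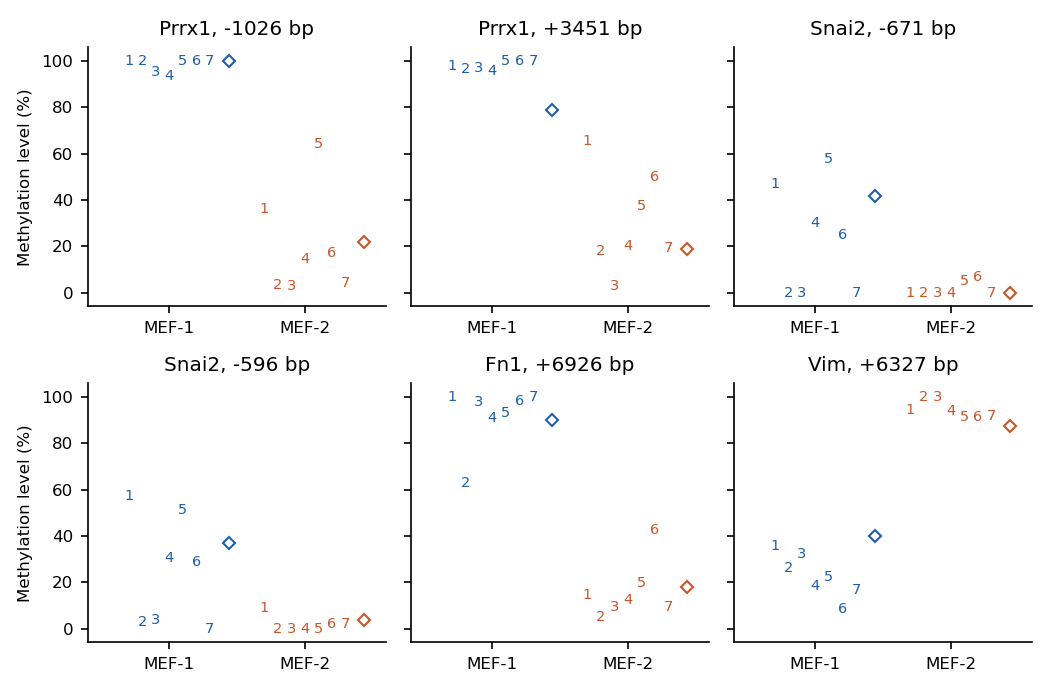
Methylation level (%) of 6 named CpGs, each digit marking the clonal line of that number and open diamonds the parental line of each family; panel titles give the gene and the distance from its start. Both Prrx1 CpGs and the Fn1 CpG are high in MEF-1, the Vim CpG is high in MEF-2, and at both Snai2 CpGs lines 1, 4, 5 and 6 of MEF-1 stand above lines 2, 3 and 7.

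Pdgfra (chr5:75152292-75198215, plus strand) held the member CpG with the widest family difference and, of the 6 promoters tested over 1000 bp before to 500 bp after the start, the widest promoter difference. Its promoter averaged 44.8% ± 1.36 in MEF-1 and 2.99% ± 1.07 in MEF-2 lines (SD, n = 7 each), a difference of 41.8 points (adjusted p = 1.05e-09, quasi-binomial F-test). An exact permutation test of 7 against 7 lines, two-sided, gave p = 0.000583, the smallest it can reach. Differences larger than this were found at 45 of 11910 protein-coding promoters, and 4.05% of promoters were called with at least 20 points. The called CpGs were 24 of the 32 promoter CpGs, all between -912 and -379, at every one of which all 7 MEF-1 lines were above all 7 MEF-2 lines. The 17 farthest of them formed an unbroken run of 280 bp, in which they were the only CpGs of the reference. It is printed from the plus strand, chr5:75151384-75151683 of GRCm38, with each called CpG in capitals, because it carries most of the difference:
Pdgfra upstream: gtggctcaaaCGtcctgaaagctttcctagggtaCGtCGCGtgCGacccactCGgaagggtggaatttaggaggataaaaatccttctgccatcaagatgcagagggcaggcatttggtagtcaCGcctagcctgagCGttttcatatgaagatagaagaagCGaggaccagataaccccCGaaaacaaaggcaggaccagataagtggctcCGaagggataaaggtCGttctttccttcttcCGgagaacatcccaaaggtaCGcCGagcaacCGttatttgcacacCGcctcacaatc

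Over these 17 CpGs the MEF-1 lines averaged 65.1% ± 2.49 (lowest, median and highest 61.4, 65.9 and 68.0%) and the MEF-2 lines 3.33% ± 1.07 (2.26, 2.99 and 5.50%). Of 11426 runs of at least 3 neighbouring called CpGs of the same direction in the table, with gaps under 200 bp, 53 were as long. A second run of 5 CpGs from -515 to -471 averaged 41.9% ± 6.61 in MEF-1 and 2.02% ± 1.24 in MEF-2. Neighbouring CpGs within the long run held different levels in MEF-1: the last, at -634, averaged 98.6% ± 0.958 (adjusted p = 1.83e-09, quasi-binomial F-test, 82 to 161 reads per library) and -648, -659 and -679 97.6, 97.4 and 98.1%. In contrast, -656, 3 bp from its neighbour, averaged 64.3% ± 10.4 and -879 20.8% ± 9.43. Across the 24 CpGs, the profiles of pairs of MEF-1 lines had Pearson correlations of 0.381 to 0.829 and those of a line and the MEF-1 parental library 0.676 to 0.931; these CpGs share reads and base composition, so this is a description. The CpGs around the start itself, from -16 to +117, had means up to 5.19% in MEF-1 and 9.53% in MEF-2.

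**Figure D4:**
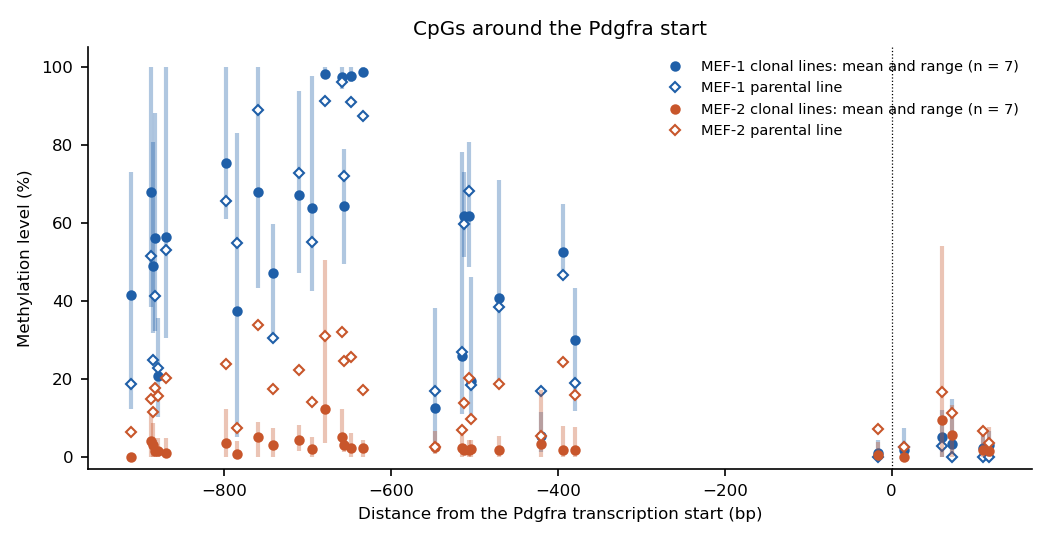
Methylation level (%) of the 32 measured CpGs around the Pdgfra start against their distance from it (bp); points are means of 7 clonal lines, bars the range over lines and open diamonds the parental lines. At the 24 called CpGs, from -912 to -379, the MEF-1 means are uneven, from 19.5 to 98.6%, while the MEF-2 means are low (line 5 alone is at 50.4% at -679), and the MEF-2 parental line is above every MEF-2 line at 23 of the 24 called CpGs.

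The MEF-2 parental library departed from its own clones in this region. Its promoter level was 15.7%, above all 7 MEF-2 lines (2.00, 2.42 and 5.08%, lowest, median and highest), and by pooled reads 17.2% of 2325 reads (95% Wilson interval 15.8 to 18.8%, counting error only). It exceeded every MEF-2 line at 23 of the 24 called CpGs, with levels from 6.38 to 33.8%. Among 11910 promoters, 8.12% had a MEF-2 parental level above all 7 clones (Snai2 also did), and 8 (0.0672%), Pdgfra among them, by at least 10 points. In Fisher's exact tests of each clone against the parental library, adjusted over the table within a line, 80 of 168 comparisons at these CpGs were called and 79 of those were lower in the clone. Over the whole table, 6.57% of such MEF-2 comparisons were called. The 24 CpGs had been picked by their call between the families. The 168 comparisons are not independent, since all 7 clones share 1 parental library and neighbouring CpGs share reads. In MEF-1 the parental promoter level, 41.7%, was instead below all 7 clones (42.9 to 46.5%), as at 8.95% of promoters. This order rests on the unweighted mean, since by pooled reads the parental library was at 50.8% and the clones between 49.3 and 54.5%. Relative coverage around Pdgfra was 1.32 in MEF-1 line 7 and between 0.980 and 1.06 in the other MEF-1 lines, and without line 7 the promoter difference was 41.5 points.

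Beyond the Pdgfra start, 63 of 109 body CpGs, from +940 to +4903, had a mean under 10%, and 26, from +11036, one of 90% or more. The body averaged 36.5% ± 0.815 in MEF-1 and 34.8% ± 0.638 in MEF-2 lines (adjusted p = 0.00337, quasi-binomial F-test), a difference of 1.74 points, or of 4.25 points over CpGs with a minimum of 20 reads. Single intronic CpGs moved far more: +4358 and +4468 averaged 42.5% ± 12.5 and 47.4% ± 11.6 in MEF-1 against 0.769% and 0.622% in MEF-2. In the methylated part, +11573 averaged 42.7% ± 22.4 in MEF-1 and 95.4% ± 4.64 in MEF-2 and +12723, in the same direction as the promoter, 96.6% ± 2.12 and 53.8% ± 12.8. In the coding part of exon 3, +11326 and +11383 were likewise higher in MEF-2, with MEF-2 means of 96.1 and 90.9% and MEF-1 means of 59.9 and 45.1%.

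Promoters whose level was most like that of Pdgfra over the 16 libraries, by the mean absolute difference, were those of Nid1 (3.47 points), Map3k1 (4.67 points), Zfp560 (4.75 points), Pax7 (4.93 points) and Isoc2b (4.97 points). All 5 were intermediate in MEF-1 and low in MEF-2, from 38.2 to 47.4% and from 2.81 to 10.0%. That pattern followed from choosing them by likeness to Pdgfra. The MEF-2 parental levels were 3.24%, 14.2%, 4.88%, 6.98% and 15.7% in the same order, against 15.7% at Pdgfra. Letters of 4 motifs were sought on both strands of the Pdgfra stretch printed above: GGGCGG, the GC box, CACGTG, the E-box with a central CpG, TGACGTCA, the cyclic AMP response element, and TGACTCA, the AP-1 site. None of these letters is in that window, and windows at the same offset from 21853 protein-coding starts held them in 8.42, 4.27, 0.183 and 4.90% of cases. The 17 CpGs of the Pdgfra window compare with a median of 3 over those windows.

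Thy1 (chr9:44043384-44048579, plus strand) was methylated wherever it was measured, which covers 1 of the 42 CpGs of its promoter window and none at the start. That CpG, at -456, had levels of 95.8, 100 and 100% in MEF-1 and 63.6, 88.2 and 100% in MEF-2 (lowest, median and highest; adjusted p = 0.0108, quasi-binomial F-test), with MEF-2 line 3 lowest and the MEF-2 parental library at 66.7%. The body averaged 92.9% ± 3.18 in MEF-1 and 96.1% ± 2.10 in MEF-2 lines, not called at adjusted p = 0.673 (quasi-binomial F-test on summed reads). On these unweighted means, the exact permutation test, two-sided, gave an unadjusted p = 0.0390. The intronic CpG at +1253 (chr9:44044637, 13 to 31 reads per library) was instead lower in MEF-1, with 62.7% ± 19.3 in MEF-1 and 95.1% ± 10.7 in MEF-2 (adjusted p = 0.0243, quasi-binomial F-test). The call at +1253 was lost without MEF-1 lines 1, 4 and 5. There MEF-1 line 6 was at 35.7%, line 4 at 100% and the other MEF-1 lines between 53.8 and 64.3%, while 5 MEF-2 lines were at 100%, line 4 at 94.1% and line 3 at 71.4%.

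Of the cytoskeletal and calcium-binding genes, Vim (chr2:13573927-13582826, plus strand) was unmethylated at its start in every library. The 11 promoter CpGs averaged 1.67% ± 0.577 in MEF-1 and 1.48% ± 1.03 in MEF-2 lines (adjusted p = 0.681, quasi-binomial F-test), and 58 of 68 body CpGs were also under 10%. The body was called, at 10.7% ± 0.781 in MEF-1 and 13.6% ± 0.813 in MEF-2 lines (difference -2.84 points, adjusted p = 0.0368). These unweighted means did not overlap between the families (exact permutation test, two-sided, unadjusted p = 0.000583). By summed reads, which the fit used, the lines overlapped, at 13.3 to 15.5% in MEF-1 and 14.3 to 20.9% in MEF-2. The call was lost when any of 7 of the 14 lines was left out (MEF-1 lines 2, 3, 6 or 7, MEF-2 lines 2, 6 or 7; adjusted p up to 0.0795), while the difference stayed between -3.06 and -2.63 points. At a minimum of 20 reads it was -5.83 points (adjusted p = 0.0525). The largest called difference was near exon 6, in this stretch of the plus strand, chr2:13580217-13580290, where the CpGs in capitals, at +6275 in the coding exon and +6327 in the intron after it, were called:
Vim exon 6 and intron: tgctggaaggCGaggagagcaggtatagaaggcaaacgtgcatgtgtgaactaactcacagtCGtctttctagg

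At +6327 the lines were at 8.33, 22.2 and 35.5% in MEF-1 and 91.4, 93.8 and 100% in MEF-2 (lowest, median and highest; difference -71.9 points, adjusted p = 1.15e-06, quasi-binomial F-test), with no overlap, at 13 to 40 reads per library. At +6275 they averaged 15.1% ± 12.6 in MEF-1 and 65.7% ± 20.2 in MEF-2 (adjusted p = 0.00225), also without overlap. The CpG between them, at +6301 and in lower case, was at most at 9.68% in 13 of the 14 lines and at 61.5% in MEF-2 line 1. Upstream of the promoter, -1452 was higher in MEF-1 (46.3% ± 9.27 in MEF-1 and 7.78% ± 15.3 in MEF-2, adjusted p = 0.0180, quasi-binomial F-test), apart from MEF-2 line 5, which at 41.9% reached the MEF-1 range. Relative coverage around Vim was 0.774 in MEF-2 line 3, and without that line the difference at +6327 was -71.0 points.

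S100a4 (chr3:90603771-90606045, plus strand), a gene with few measured CpGs, had a partly methylated promoter in both families and, of the tested regions, the widest spread between lines of a family. Its 7 promoter CpGs averaged 55.0% ± 7.39 in MEF-1 and 55.7% ± 9.64 in MEF-2 lines (not called, adjusted p = 0.930, quasi-binomial F-test), with lines from 42.3 to 66.8% in MEF-1 and from 38.6 to 65.4% in MEF-2. Intronic CpGs within this mean differed in opposite directions. The CpG at +261 (chr3:90604032, 11 to 31 reads per library) averaged 80.0% ± 22.4 in MEF-1 and 38.4% ± 14.6 in MEF-2 (adjusted p = 0.0147, quasi-binomial F-test) and that at +390 10.0% ± 7.66 and 44.1% ± 20.1 (adjusted p = 0.0302). Thinning to 10 reads ended the call at +261. The mean fidelity score of the gene, the share of clonal lines with a level of 0 to 10, 40 to 60 or 90 to 100%, was 0.664, the lowest of the 9 genes, where the others were between 0.866 and 0.959, the member CpGs together 0.910 and all CpGs had 0.833. Its 3 body CpGs averaged 5.98% and 7.33%, so here the promoter was the more methylated part in all 14 lines.

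Acta2, read from the library tables at 44 CpGs that every library covered by 10 or more reads, had a low promoter and a methylated body. The promoter levels were 2.32, 5.48 and 8.00% in MEF-1 and 0, 0.606 and 3.85% in MEF-2 (lowest, median and highest over 11 CpGs), 4.25 points apart in the mean (exact permutation test over lines, two-sided, p = 0.00117), with the families overlapping only through MEF-2 line 2. The body averaged 62.3% ± 2.60 and 65.6% ± 2.72 over 33 CpGs (exact permutation p = 0.0425), a call lost when any of 9 of the 14 lines was left out. Coverage around Acta2 was 1.38 to 1.50 times the MEF-2 median in MEF-1 clones and 1.32 times in their parental line, so the family and the number of chromosome 19 copies cannot be told apart.

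Of the matrix genes, Fn1 (chr1:71585520-71653200, minus strand) had an unmethylated promoter and a methylated body. All 22 measured promoter CpGs lay downstream of the start. They averaged 1.85% ± 0.806 in MEF-1 and 1.42% ± 0.716 in MEF-2 lines. The body averaged 60.7% ± 0.810 in MEF-1 and 58.8% ± 1.57 in MEF-2 lines. Neither region was called (adjusted p = 0.370 and 0.533, quasi-binomial F-test on summed reads). On the unweighted body means, the exact permutation test, two-sided, gave an unadjusted p = 0.0140. In the body, 21 CpGs up to +2422 were under 10% and 34 from +4857 on were at 90% or more. The largest called difference was at an intronic CpG with a neighbour of the opposite direction 15 bp away, both in capitals on the minus strand of chr1:71646229-71646285, 5′ to 3′:
Fn1 intron: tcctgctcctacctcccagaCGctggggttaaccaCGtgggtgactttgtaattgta

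The left one, at +6911, averaged 46.8% ± 23.7 in MEF-1 and 86.2% ± 6.68 in MEF-2 (adjusted p = 0.00273, quasi-binomial F-test). The right one, at +6926, averaged 91.9% ± 13.2 in MEF-1, 75.9 points above MEF-2 (adjusted p = 0.000343, 27 to 67 reads per library). The families did not overlap at +6926, where MEF-1 line 2 was the lowest of its family at 62.9% and MEF-2 line 6 the highest of its own at 42.6%, and the parental libraries were at 90 and 17.9%. This CpG lies within the letters CACGTG, the E-box form with a central CpG, as do 0.950% of the CpGs of the table. Of those, 26.3% were called between the families, against 20.2% of all CpGs. Of the 2 member CpGs within these letters, the other, at -1365 in Vim, was not called (3.23% in MEF-1 and 2.07% in MEF-2). Closer to the start, +2064 and +2089 were near 0 in MEF-1 and averaged 23.6% ± 18.8 and 25.2% ± 14.9 in MEF-2.

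Postn (chr3:54361109-54391037, plus strand) was measured only at 9 CpGs around exon 12, 8 of which had a mean of 90% or more, and none was called (0 of 9 had an unadjusted p under 0.05, and limma called 0). The body averaged 96.5% ± 1.97 in MEF-1 and 94.1% ± 2.59 in MEF-2 lines (adjusted p = 0.0772, quasi-binomial F-test). The exception was +15020, in the coding part of exon 12, where lines ranged from 46.6 to 98.4% in MEF-1 and from 18.5 to 94.0% in MEF-2 at 51 to 90 reads, so the range within each family was wider than the difference between the family means (82.1 and 68.2%).

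For the 6 genes with both regions (Twist2, Snai2, Pdgfra, Vim, S100a4 and Fn1), the gene body exceeded the promoter by 5.77 ± 1.48 points over the 7 MEF-1 lines and by 13.3 ± 1.56 points over the 7 MEF-2 lines. It did so in all 7 lines of both families, and the exact sign-flip test, two-sided, gave p = 0.0156 for each, the smallest it can give with 7 lines. This mean joins unlike genes. Fn1 differed by 58.9 and 57.4 points and S100a4 by -49.0 and -48.4 points in MEF-1 and MEF-2, and Pdgfra by -8.33 points in MEF-1 but 31.8 in MEF-2. At a minimum of 20 reads, which left Pdgfra, Twist2 and Snai2, the mean was 10.2 points in MEF-1 and 26.9 in MEF-2. With the promoter taken as the 1000 bp before the start, which drops Fn1, the mean turned to -10.1 points in MEF-1 (exact sign-flip p = 0.0156) and was 0.599 in MEF-2 (exact p = 0.359), so no order of the regions holds for the set as a whole.

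Single lines were set against the rest of their family by Fisher's exact test of a line against the summed reads of the other 6, adjusted over the table within the line. This test covers counting error only: it takes reads as independent and leaves out the spread among the other 6 lines, so several lines can be called at a CpG where others stand apart. At the member CpGs, 138 of 3759 line and CpG pairs were called in MEF-1 (3.67%, with 6.24% over the whole table) and 166 of 3759 in MEF-2 (4.42%, with 10.1% over the whole table). Of the 304 calls, which fell on 138 CpGs, 103 were of the only line of its family called at the CpG. The share was below the table's in each of the 14 lines, and ranged from 2.79 to 4.47% in MEF-1 and from 2.98 to 5.96% in MEF-2. The difference between member CpGs and the table was not tested, and low CpGs, in which a line has little room to differ downwards, were more frequent among the members. By gene, the share of pairs called ran from 0.468% in Twist2 (MEF-1) to 15.7% in S100a4 (MEF-2). The largest numbers were 56 of 987 in Pdgfra (MEF-1) and 44 of 623 in Fn1 (MEF-2). In Prrx1, 13 of the 31 MEF-2 calls fell on MEF-2 line 3, the most of any MEF-2 line there. The Prrx1 body level of that line was 39.9%, against 43.2 to 46.6% in the other MEF-2 lines. The MEF-2 parental library, at 41.8%, lay between them.

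**Figure D5:**
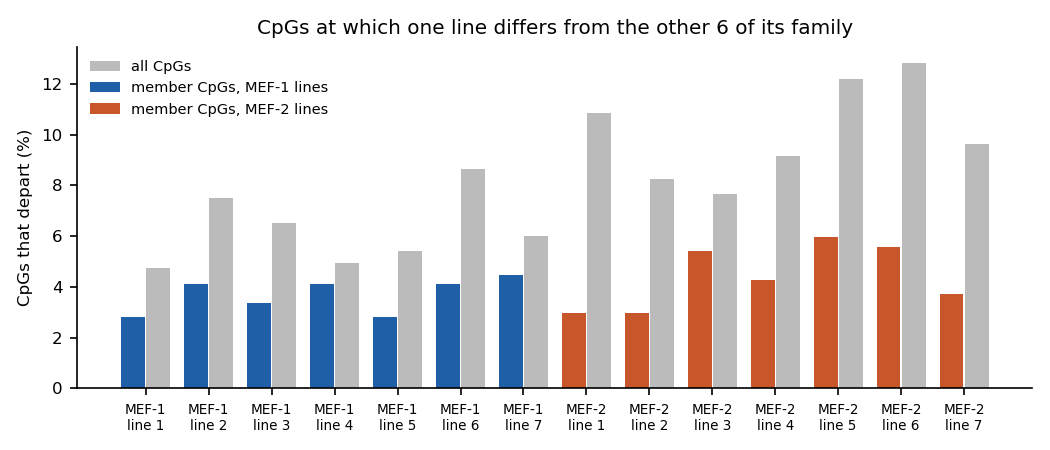
Percentage of CpGs at which a clonal line differs from the other 6 lines of its family (Fisher's exact test, adjusted p under 0.05); coloured bars are the 537 member CpGs and grey bars all CpGs of the table. In all 14 lines the coloured bar is the shorter.

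Single lines also stood apart from their family at single CpGs, and the following were chosen after their values were seen. At +3164 in the first intron of Pdgfra, MEF-1 line 7 was at 78.9% and MEF-2 line 1 at 89.5% (19 reads each), with the other MEF-1 lines at most at 5.88% and the other MEF-2 lines at most at 23.1%. At +6090 in exon 6 of Vim, MEF-2 line 2 was at 16.7% of 66 reads and the other MEF-2 lines between 89.9 and 98.9%. MEF-2 line 5 was near an even split at 2 CpGs of the Pdgfra promoter, -679 (50.4% of 125 reads) and +61 (54.2% of 24 reads), where no other MEF-2 line exceeded 7.55%. In the intron of Snai2, +2062 was at 68.7% in MEF-2 line 4 and 51.0% in line 3 and at most at 15.9% in the other MEF-2 lines. At +657 of Twist2, in the untranslated part of exon 1, MEF-1 line 7 reached 58.8% of 17 reads. The other 6 MEF-1 lines averaged 7.23% there, with lines 1, 4 and 5 at 0.

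Lines 1, 4 and 5 of MEF-1, which differ least from the parental library over the table (1.34 to 1.54% of its CpGs, against 4.54 to 5.53% in the other MEF-1 lines), shared levels at some member CpGs. All 3 stood above lines 2, 3, 6 and 7, with means at least 20 points apart, at 5 of 537 member CpGs (0.931%, with 1.95% over the whole table) and below them at 6 (1.12%, with 1.15% over the whole table). Neither share was above that of the table. They include both Snai2 CpGs upstream, and in the long Pdgfra run -785, with means of 66.4% in lines 1, 4 and 5 and 15.7% in the others, and -888, with 41.6% and 87.5%. At the Snai2 CpGs the split was narrow, since line 6 stood close to line 4. The lowest of lines 1, 4 and 5 and the highest of the others were at 30.6 and 28.6% at -596 and at 30 and 25% at -671. These groups of lines were drawn from the data and carry no test. Relative coverage of chromosome 18 was 0.534 to 0.556 in lines 1, 4 and 5 and 0.925 to 0.990 in the other MEF-1 lines. The fits took all 7 MEF-1 lines as separate, and a closer relation among lines 1, 4 and 5 was not tested.

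Against the parental libraries, clonal lines were called at 69 of 3759 pairs in MEF-1 (1.84%, with 3.46% over the whole table) and 186 in MEF-2 (4.95%, with 6.57% over the whole table; Fisher's exact test, adjusted within a line). These calls too cover counting error only, and all 7 comparisons of a family share 1 parental library. In MEF-2, 92 of these belonged to Pdgfra and 81 of the 92 were lower in the clone. In Fn1 and Prrx1 the MEF-2 clones were mostly higher than their parental line, at 20 of 27 and 21 of 22 called pairs.

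Among 36 other mesenchymal genes, 5 of 17 testable promoters (4 higher in MEF-1) and 11 of 25 bodies (3 higher in MEF-1) were called, beside 41.6% and 48.3% of all genes. A single promoter of that list differed by at least 20 points, that of Cdh11, a mesenchymal cadherin, at 57.4% ± 5.03 in MEF-1 and 1.76% ± 0.747 in MEF-2 (adjusted p = 3.53e-10, quasi-binomial F-test). The median absolute difference was 0.570 points over the member promoters, 1.26 over the other mesenchymal and 1.84 over all promoters. Of the epithelial promoters 13 of 19 were called (8 higher in MEF-1 and 5 higher in MEF-2). Of the leukocyte promoters 7 of 8 were called (6 higher in MEF-1 and 1 higher in MEF-2). The median absolute differences were 8.83 and 13.2 points. Those with at least 20 points were all higher in MEF-1: the epithelial Epcam, Jup and Crb3, which encode adhesion, junction and polarity proteins (differences of 38.6, 28.7 and 25.7 points), and the leukocyte Tyrobp, Laptm5 and Cd53 (23.1, 23.0 and 20.5 points). Epcam and Cd53 rest on 4 CpGs each and Tyrobp and Laptm5 on 3 each. The widest called difference the other way was -14.0 points in the epithelial list (Cldn3) and -9.54 points in the leukocyte list (Spi1). Endothelial promoters were called at 4 of 7 (2 higher in MEF-1 and 2 higher in MEF-2), none by 20 points.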

How the data were processed

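Target capture bisulfite sequencing of 16 libraries was analysed from the deposited tables of counts of methylated and unmethylated reads per CpG. Per the labels and the study's methods, the authors trimmed reads with Trim Galore 0.6.0, used Bismark to align them to mm10, dropped reads with a mapping quality under 10, combined both strands of a CpG and worked in R 3.6.1. The removal of PCR duplicates is not given in the sources used here, so intervals cover counting error only. In the series table, the authors kept CpGs covered by 10 or more reads in each library. Chromosomes 12, 18, 19, X and Y were not part of the fits over this table, and 113 of its 1203687 CpGs do not lie on a reference CG. Its 2 other columns of values per library (coverage and percent methylation) and its scores per CpG were not used.

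The members and the other gene lists were chosen with earlier results of these data known. A CpG's family difference was tested by a quasi-binomial model of the counts, written in Python 3.11.15 (numpy 2.4.6, scipy 1.17.1) and checked on simulated data, with F-test p-values adjusted by Benjamini-Hochberg over all CpGs, or over all promoters or bodies of protein-coding genes with counts summed. Printed region levels are unweighted means over CpGs, whereas the region fits used summed counts, so level and p-value weigh CpGs differently. Single lines were compared by Fisher's exact test, Acta2 by an exact permutation test and promoter with body by an exact sign-flip test. The named CpGs are the called one with the largest difference per gene and runs of at least 3 called CpGs, and others as stated. Alternatives included read minimums of 5 and 20, thinning to 10 reads, limma 3.58.1 on levels, a replicate block, other windows and leaving out lines.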

Additional observations from a re-analysis of the deposited data

Results flagged for a closer look

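The Dixon gap test at the 95% level was run on both families for 28 values, and chance alone would mark about 1 in 20 such groups of 7. Of the 56 groups, 9 held a line set apart from the other 6. At the Fn1 CpG at +6926, MEF-1 line 2 was the low line (62.9%, next line 90.9%) and MEF-2 line 6 the high one (42.6%, next 19.4%). At the Thy1 CpG at +1253, MEF-2 line 3 was low (71.4%, next 94.1%), and at the Twist2 CpG at +17961, MEF-1 line 6 (50%, next 81.2%). In the S100a4 body, MEF-1 line 4 (14.0%) and MEF-2 line 7 (14.8%) stood above their families. Small upward gaps were found for MEF-2 line 1 at the Snai2 CpG at -596 (8.89%, next 2.04%), MEF-2 line 3 at the Vim promoter (3.64%, next 1.58%) and MEF-2 line 2 at the Acta2 promoter (3.85%, next 1.29%).

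In 4 values all 7 clones of one family lay on one side of their parental library and all 7 clones of the other family on the opposite side, a difference between families that was not tested. The clonal mean minus the parental level at the Pdgfra promoter was 3.10 points for MEF-1 and -12.7 for MEF-2. It was 5.21 and -16.5 points over the Pdgfra run from -912 to -634, and 11.3 and -14.9 points at its last CpG, at -634. By pooled reads the MEF-1 parental library was at 50.8% at the promoter, within the clones, and at 69.0% over the run, against 59.9% unweighted. At the Vim CpG at +6327 the order was the other way, with -17.2 points for MEF-1 and 7.21 for MEF-2. Each parental value is 1 library.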

How the results depend on the processing

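The differing member CpGs numbered 46 at a minimum of 20 reads, where 235 members were left, 58 after thinning, 61 by limma, 87 of 787 at a minimum of 5 reads and 65 to 73 without any 1 line. The share of the whole table called in each setting is not set beside these counts. They are therefore not read as changes particular to the members. Calls against other lines fell to 9 (MEF-1) and 10 (MEF-2), and against the parental library to 0 and 0, when each CpG kept 10 reads, a depth at which no CpG of the table passed the parental test either. The differing gene bodies were 1 at 20 reads and 1 to 3 without 1 line, with Vim lost or Postn gained, and the promoters 1 without MEF-1 lines 1, 4 and 5. That setting also ended the calls at the Thy1 CpG at +1253 (adjusted p = 0.0529) and the Twist2 CpG at +17961 (adjusted p = 0.0919), with fewer lines in the fit, and thinning ended those at the S100a4 CpG at +261 (adjusted p = 0.0512) and the Snai2 CpG at -596, which limma did not call either. Promoters taken over 2000 bp before the start lost Snai2 (adjusted p = 0.0541) and gained Vim and Prrx1. Body minus promoter was -10.1 points in MEF-1 and 0.599 in MEF-2 with the window ending at the start, which leaves out the low CpGs after it and Fn1. The promoter difference was 6.91 points in Acta2 at a minimum of 5 reads and 2.48 in Snai2 over 1000 bp before the start. The Acta2 body difference was -7.29 points at 20 reads, over 19 CpGs, and -3.92 to -2.55 points without 1 line. With the line number as a replicate block, 59 CpGs and 1 gene body (Pdgfra) were called and the paired Acta2 body difference of -3.29 points had an exact p = 0.0781. Lines that share a number are not otherwise paired: their deviations correlated between -0.105 and 0.0547 over 537 CpGs, and 0 of 7 correlated best with its own number. The Pdgfra promoter stayed higher in MEF-1 and called under every alternative run. Most genes were covered at a small share of their CpGs, and at the lowest depth of 10 reads 1 read is 10 points.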
